A study of Homo sapiens with 6 samples.

Results

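The genes described here are 10 inflammatory genes of MDA-MB-231 cells: the chemokines CXCL1, CXCL2, CXCL3, CXCL8 and CCL2, the cytokines IL1A and IL1B, and the NF-kB pathway genes NFKBIA, TNFAIP3 and RELB. They were chosen by symbol, as a chemokine and cytokine group with the NF-kB genes that answer to the same pathway. The choice was made with earlier results of these data known. All 10 were found among the 60612 gene identifiers. MDA-MB-231 is an established human triple-negative breast cancer (TNBC) line of epithelial origin. RNA was sequenced at day 3 from cells that stably carried either a control hairpin (Sh-NC, genotype WT) or a hairpin that silences YAP1 (Sh-YAP1, genotype YAP1 knockdown), with 3 libraries in each group and no other treatment. The labels give 1 hairpin group against YAP1, so an effect of that hairpin outside YAP1 cannot be told apart from the loss of YAP1. They do not say whether the 3 libraries of a group came from separate cultures, so p-values measure the spread between these libraries, which may be technical.

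CXCL1, CXCL2, CXCL3 and CXCL8 are small secreted proteins that attract neutrophils through the receptor CXCR2 (CXCL8 also through CXCR1), and CCL2 attracts monocytes through CCR2. IL1A and IL1B bind the receptor pair IL1R1 and IL1RAP, which signals through MYD88 and the IRAK kinases to the IkB kinase complex. That complex marks IkB proteins for destruction and so frees NF-kB, which turns on chemokine and cytokine genes together with its own brakes: NFKBIA encodes IkB alpha, and TNFAIP3 encodes A20, an enzyme that edits ubiquitin chains on pathway proteins. RELB is an NF-kB subunit of the alternative pathway, where it pairs with the processed product of NFKB2.

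The sequences below are given because NF-kB is the factor these genes are grouped by, and a kB-like stretch lies close to the start in 6 of them. Promoter windows from RefSeq (GRCh38.p14) were found for 8 of the 10 genes, all but CCL2 and RELB, with 2 windows for IL1A. Within the 250 bases before the start, CXCL1, CXCL2 and CXCL3 shared an unbroken run of 23 bases, and CXCL8 shared 9 of them. The lines give 10 bases on each side, 5′ to 3′ on the strand of the gene, with the shared 9 bases in capitals.
CXCL1: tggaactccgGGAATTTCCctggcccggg
CXCL2: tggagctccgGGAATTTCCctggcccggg
CXCL3: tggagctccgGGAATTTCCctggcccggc
CXCL8: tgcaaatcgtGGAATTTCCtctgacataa

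The shared bases began at -78 in CXCL1, -77 in CXCL2, -78 in CXCL3 and -91 in CXCL8, counted so that -1 is the last base before the RefSeq start. The RefSeq starts of these genes are at 73869393, 74099195, 74038689 and 73740569. That of CXCL1 is also its GENCODE start, while the GENCODE gene spans given with the levels begin further upstream for CXCL2, CXCL3 and CXCL8, so that the stretches of CXCL2 and CXCL3 lie inside those spans. The printed stretches lie at chr4:73869305-73869333 (CXCL1, plus strand), chr4:74099254-74099282 (CXCL2, minus strand), chr4:74038749-74038777 (CXCL3, minus strand) and chr4:73740468-73740496 (CXCL8, plus strand). In the 2 feedback inhibitors, the match to the kB consensus, in capitals below, read on the opposite strand.
NFKBIA: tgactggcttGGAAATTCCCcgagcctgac
TNFAIP3: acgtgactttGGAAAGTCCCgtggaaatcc

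These lie at chr14:35404811-35404840 (NFKBIA, minus strand) and chr6:137867182-137867211 (TNFAIP3, plus strand), with the match beginning at -81 and -67 from RefSeq starts at 35404749 and 137867259. TNFAIP3 has another match beginning at -55, whose first bases lie in the lower case end of the printed stretch. The GENCODE span of TNFAIP3 begins upstream of its RefSeq start and takes in both matches. The run GGAATTTCC was defined by the 4 CXCL promoters, so its presence in them is no finding. Searched on both strands, it was also present in NFKBIA, on the opposite strand, and in 0.413% of 35116 RefSeq promoter windows of the same length. The kB consensus, which overlaps that run in CXCL1, CXCL2, CXCL3 and NFKBIA, was present in 5 of the 8 genes and in 6.88% of windows. TGANTCA, the AP-1 motif, was found in CXCL8 and IL1A and in 6.57% of windows. CATTCC, the core bound by the TEAD partners of YAP1, was in none of the 8 genes in these 250 bases and in 11.9% of windows. A match of letters is a description and not a measured binding site.

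The knockdown was present in every Sh-YAP1 library. YAP1 was at 28.1, 26.2 and 22.9 FPKM in the Sh-NC libraries and at 3.35, 2.67 and 2.58 FPKM in the Sh-YAP1 libraries. FPKM are fragment counts scaled to the length of the transcript and the size of the library, so levels of different genes can be set side by side. The value of a gene is the sum of its transcript rows. Of the markers of this line, VIM, a mesenchymal filament of this line, was at 1645 to 2303 FPKM, ESR1 did not exceed 0.07 FPKM and PGR did not exceed 0.01 FPKM. ERBB2, the third receptor by which triple-negative tumours are defined, was at 14.3 to 18.1 FPKM in the 6 libraries. Of 12 markers of blood and vessel cells, 4 were listed at 0 in all 6 libraries, among them CD3E, and 7 averaged under 0.1 FPKM. Their summed level was 3.33 to 6.16 FPKM in Sh-NC against 3.40 to 4.93 FPKM in Sh-YAP1. CSF1R and PECAM1 were the highest of these markers.

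None of the 9 genes that could be tested passed an adjusted p of 0.05 (limma, Benjamini-Hochberg over 14770 genes), where 3.38% of all genes tested did (1.75% rose and 1.62% fell). An unadjusted p under 0.05 was reached by 1 of the 9, IL1B, where 21.9% of all genes tested reached it. The groups did not overlap for 2 of the 9, IL1B and CCL2, both lower in Sh-YAP1, where 29.4% of all genes tested did not overlap and 14.7% of all genes tested did so in the lower direction. The median log2 fold change of the 9 genes was -0.05, and that of all genes tested was 0.00 (-0.0014). The median size of the log2 fold change, without its sign, was 0.07 for the 9 genes and 0.16 for all genes tested. On the log2(FPKM + 1) scale 8 of the 9 lay below 0 and CXCL1 above it, where 7420 of the 14770 genes tested lay below 0. That count rests on single libraries: without Sh-YAP1 replicate 2, CXCL2, CXCL8, TNFAIP3 and RELB also lay above 0, and without Sh-NC replicate 2, CXCL2, TNFAIP3 and RELB did. IL1A averaged under the filter of 0.5 FPKM and was not tested.

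**Figure D1:**
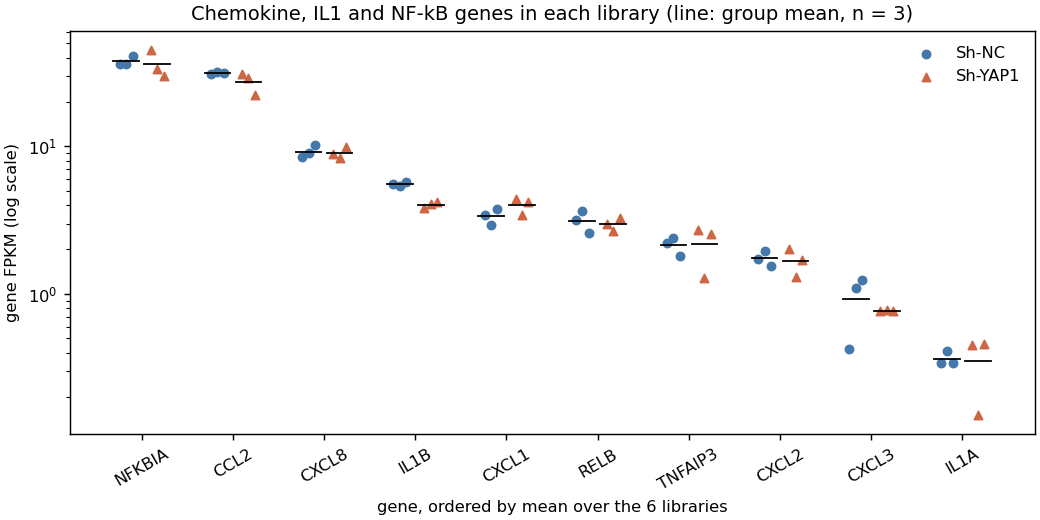
Gene level in FPKM (vertical axis, log scale) of the 10 genes, ordered by mean level, in the 3 Sh-NC libraries (circles) and the 3 Sh-YAP1 libraries (triangles), with a line at each group mean. The levels run from NFKBIA, at 30.2 to 45.4 FPKM, to IL1A, at 0.15 to 0.46 FPKM, and the groups stand apart for IL1B and, narrowly, for CCL2.

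The order of the levels was NFKBIA, CCL2, CXCL8, IL1B, CXCL1, RELB, TNFAIP3, CXCL2, CXCL3 and IL1A. NFKBIA averaged 37.0 FPKM over the 6 libraries, above 86.3% of the genes tested, and CCL2 averaged 29.4 FPKM, above 82.7%. At the other end CXCL3 averaged 0.85 FPKM, above 8.65% of the genes tested, and IL1A averaged 0.36 FPKM. The ranges over the 6 libraries did not overlap between CCL2 and CXCL8, between CXCL8 and IL1B, or between CXCL2 and CXCL3. All other neighbours in the order overlapped in range, although NFKBIA was above CCL2 in 6 of 6 libraries.

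Of the neutrophil-attracting chemokines, CXCL8 was the most abundant. CXCL8 (ENSG00000169429, chromosome 4, 73740506 to 73743716, GRCh38) was at 8.45, 8.96 and 10.3 FPKM in the Sh-NC libraries and at 8.90, 8.29 and 9.94 FPKM in the Sh-YAP1 libraries. The groups overlapped over nearly their whole range. The mean was 9.23 ± 0.94 FPKM in Sh-NC against 9.04 ± 0.83 FPKM in Sh-YAP1 (n = 3, SD). Its log2 fold change was -0.03 (SE, the standard error, was 0.10, and the adjusted p = 0.913, limma and Benjamini-Hochberg). The 95% interval ran from -0.28 to 0.22, that is, from 0.826-fold to 1.17-fold on the scale of FPKM + 1, so larger changes lay outside it. A leading transcript row held 93.4% of the FPKM of CXCL8.

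CXCL1 (ENSG00000163739, chromosome 4, 73869393 to 73871242) had a log2 fold change above 0 with all 6 libraries and with any one of them left out. It was at 3.41, 2.91 and 3.75 FPKM in the Sh-NC libraries and at 4.41, 3.44 and 4.20 FPKM in the Sh-YAP1 libraries. Sh-YAP1 replicates 1 and 3 were above every Sh-NC library, and replicate 2 lay inside the Sh-NC range. The log2 fold change was 0.20 (SE 0.12, adjusted p = 0.376, limma and Benjamini-Hochberg), with a 95% interval from -0.09 to 0.49. Without Sh-NC replicate 2 it was 0.13. Over all regroupings of the 6 libraries the two-sided exact permutation p was 0.2, where 3 against 3 cannot go below 0.1.

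CXCL2 (ENSG00000081041, chromosome 4, 74097035 to 74099293) was at 1.72, 1.96 and 1.55 FPKM in Sh-NC and at 2.03, 1.30 and 1.71 FPKM in Sh-YAP1. Both the highest and the lowest value were Sh-YAP1 libraries. CXCL3 (ENSG00000163734, chromosome 4, 74036589 to 74038807) was at 0.42, 1.10 and 1.25 FPKM in Sh-NC and at 0.76, 0.78 and 0.77 FPKM in Sh-YAP1. The Sh-NC libraries of CXCL3 enclosed the Sh-YAP1 libraries, with replicate 1 below and replicates 2 and 3 above them. The log2 fold changes were -0.04 for CXCL2 (95% interval -0.36 to 0.28) and -0.09 for CXCL3 (95% interval -0.54 to 0.35), with adjusted p of 0.893 and 0.815 (limma, Benjamini-Hochberg).

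CXCL1, CXCL2 and CXCL3 are near copies of each other in their coding sequences, and the stretch below is printed to show a part that is much alike. The coding sequences (GENCODE 29, 1 transcript per gene) were each 324 bases long. They were identical at 93.5% of positions between CXCL1 and CXCL2, 90.7% between CXCL1 and CXCL3, and 94.4% between CXCL2 and CXCL3, against 52.5% to 54.1% between each of them and CXCL8. The longest unbroken shared run was 61, 55 and 97 bases for the same 3 pairs. Over the 324 bases, 34 positions differed among the 3 genes, so the printed stretch is more alike than the whole. The untranslated parts of the transcripts were not compared. Bases 131 to 250 of the coding sequence follow, with the 7 positions of this stretch that differ among the genes in capitals.
CXCL1: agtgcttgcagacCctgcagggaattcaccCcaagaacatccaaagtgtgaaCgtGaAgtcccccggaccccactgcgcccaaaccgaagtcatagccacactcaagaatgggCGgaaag
CXCL2: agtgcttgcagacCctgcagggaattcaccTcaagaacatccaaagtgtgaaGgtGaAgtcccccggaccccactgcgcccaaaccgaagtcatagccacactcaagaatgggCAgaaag
CXCL3: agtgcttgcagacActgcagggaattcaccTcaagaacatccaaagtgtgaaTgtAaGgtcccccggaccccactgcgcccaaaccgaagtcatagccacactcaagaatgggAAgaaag

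The read length and the rule for fragments that match more than 1 gene are not given in the sources used here, so the split among CXCL1, CXCL2 and CXCL3 is uncertain. Their sum depends less on that split. It was 5.55, 5.97 and 6.55 FPKM in the Sh-NC libraries and 7.20, 5.52 and 6.68 FPKM in the Sh-YAP1 libraries, with means of 6.02 ± 0.50 and 6.47 ± 0.86 FPKM (n = 3, SD). The sum overlapped between the groups, as CXCL1, CXCL2 and CXCL3 each did alone. With CXCL8 added, the sum averaged 15.3 ± 1.44 FPKM in Sh-NC against 15.5 ± 1.50 FPKM in Sh-YAP1 (n = 3, SD), of which CXCL8 made up 59.4%.

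CCL2 (ENSG00000108691, chromosome 17, 34255218 to 34257203) was the most abundant chemokine of the 5. It was at 31.0, 32.0 and 31.5 FPKM in the Sh-NC libraries and at 30.9, 28.9 and 22.2 FPKM in the Sh-YAP1 libraries. The Sh-NC libraries lay close together, Sh-YAP1 replicate 1 was just under them, and Sh-YAP1 replicate 3 stood well below the rest. The mean was 31.5 ± 0.47 FPKM in Sh-NC against 27.4 ± 4.56 FPKM in Sh-YAP1 (n = 3, SD). Its log2 fold change was -0.21 (SE 0.12, adjusted p = 0.373, limma and Benjamini-Hochberg). A two-sided exact permutation test gave p = 0.1, the smallest possible with 3 against 3. Without Sh-YAP1 replicate 3 the log2 fold change was -0.07, so that library carried most of the difference.

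IL1B had the log2 fold change of largest size among the 9 genes tested. In FPKM the group means of CCL2 lay further apart, at 31.5 and 27.4 FPKM. Without transcript rows that exceeded 1 FPKM in a single library, the log2 fold change of RELB was larger in size, at -0.48. IL1B (ENSG00000125538, chromosome 2, 112829751 to 112836903), the secreted form of IL1 that is cut from an inactive precursor, was at 5.59, 5.37 and 5.78 FPKM in the Sh-NC libraries and at 3.82, 4.07 and 4.20 FPKM in the Sh-YAP1 libraries. All 3 Sh-YAP1 libraries were below all 3 Sh-NC libraries, and the gap between the groups was wider than the range within either. The mean was 5.58 ± 0.21 FPKM in Sh-NC against 4.03 ± 0.19 FPKM in Sh-YAP1 (n = 3, SD), a change of the mean by -27.8%. Its log2 fold change was -0.39 (SE 0.08, 95% interval -0.58 to -0.19). The unadjusted p from limma was 0.0023, rank 593 among 14770 genes, and the adjusted p was 0.0572 (Benjamini-Hochberg), which missed the threshold. With all regroupings of the 6 libraries the two-sided exact p was 0.1, which 3 against 3 cannot go below. Over 16 alternative settings the adjusted p of IL1B (limma, Benjamini-Hochberg) ranged from 0.0505 to 0.173 and its log2 fold change from -0.47 to -0.36.

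**Figure D2:**
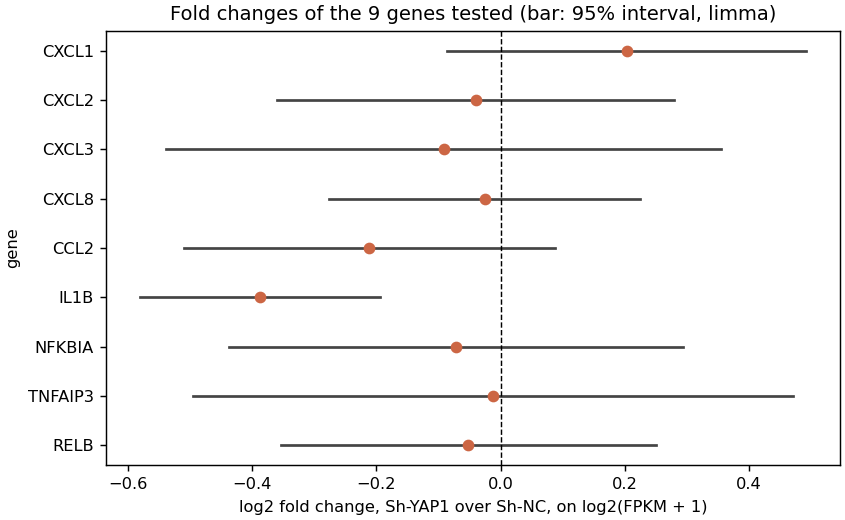
Log2 fold change of Sh-YAP1 over Sh-NC on log2(FPKM + 1) (horizontal axis) for the 9 genes tested, with 95% intervals from limma, which are not adjusted for the number of genes. The interval of IL1B, from -0.58 to -0.19, leaves out 0, and the other 8 include it.

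IL1A (ENSG00000115008, chromosome 2, 112773915 to 112784590), which is active also as its uncut precursor, was at the lowest level of the 10 genes. It was at 0.34, 0.41 and 0.34 FPKM in Sh-NC and at 0.45, 0.15 and 0.46 FPKM in Sh-YAP1. Sh-YAP1 replicate 2 was the lowest library and the other two Sh-YAP1 libraries were the highest. A two-sided exact permutation test gave p = 1, and no fold change is given at this level.

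NFKBIA (ENSG00000100906, chromosome 14, 35401511 to 35404749) was the most abundant of the 10 genes. It was at 36.3, 36.2 and 40.7 FPKM in the Sh-NC libraries and at 45.4, 33.5 and 30.2 FPKM in the Sh-YAP1 libraries. The Sh-YAP1 libraries spread on both sides of the Sh-NC libraries, with replicate 1 the highest of all and replicate 3 the lowest. The mean was 37.7 ± 2.59 FPKM in Sh-NC against 36.3 ± 8.01 FPKM in Sh-YAP1 (n = 3, SD). Its log2 fold change was -0.07 (95% interval -0.44 to 0.29, adjusted p = 0.824, limma and Benjamini-Hochberg).

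TNFAIP3 (ENSG00000118503, chromosome 6, 137867188 to 137883312) was at 2.20, 2.41 and 1.82 FPKM in Sh-NC and at 2.71, 1.29 and 2.53 FPKM in Sh-YAP1. As for CXCL2, the highest and the lowest library were both Sh-YAP1. Its mean was 2.14 FPKM in Sh-NC against 2.18 FPKM in Sh-YAP1, while its log2 fold change was -0.01 (95% interval -0.49 to 0.47, adjusted p = 0.979, limma and Benjamini-Hochberg), so the sign differed between the mean and the log scale. A long non-coding gene, AL357060.1, overlaps TNFAIP3 on the opposite strand, and whether strand was used in counting is not given in the sources used here. RELB (ENSG00000104856, chromosome 19, 45001430 to 45038198) was at 3.18, 3.63 and 2.58 FPKM in Sh-NC and at 2.97, 2.66 and 3.28 FPKM in Sh-YAP1. All 3 Sh-YAP1 libraries of RELB lay inside the Sh-NC range. Its log2 fold change was -0.05 (95% interval -0.35 to 0.25, adjusted p = 0.848, limma and Benjamini-Hochberg). Without transcript rows that exceeded 1 FPKM in a single library it was -0.48 (adjusted p = 0.543, limma and Benjamini-Hochberg).

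The sums above are made of transcript rows, and these differed in how steady they were. The 10 genes had 53 rows, of which 37 averaged at least 0.1 FPKM. The groups did not overlap in 3 of the 37, all lower in Sh-YAP1, where 13.1% of all 77655 rows at that level did not overlap. These were the leading rows of IL1B and CCL2 and the fourth row of NFKBIA. The leading row of IL1B, 87.8% of the gene, was at 4.84, 4.80 and 5.60 FPKM in Sh-NC and at 3.11, 3.64 and 3.33 FPKM in Sh-YAP1. The other rows of IL1B together were at 0.75, 0.57 and 0.18 FPKM in Sh-NC and at 0.71, 0.43 and 0.87 FPKM in Sh-YAP1, and overlapped. The difference of IL1B was therefore carried by its leading row. The fourth row of NFKBIA was at 6.37, 5.80 and 6.43 FPKM in Sh-NC and at 2.79, 3.89 and 4.64 FPKM in Sh-YAP1, within a gene total that overlapped.

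In RELB and TNFAIP3, as in NFKBIA, the rows traded places between libraries of the same group. The second row of RELB was at 0, 0.97 and 1.70 FPKM in Sh-NC and at 1.09, 0 and 0 FPKM in Sh-YAP1, and the fourth row was at 1.72, 0 and 0 FPKM and at 0, 1.83 and 0 FPKM. Libraries of the same group filled different rows, and yet the total of RELB stayed between 2.58 and 3.63 FPKM. The leading row of TNFAIP3 was at 1.18 to 1.23 FPKM in Sh-NC, at 1.29 and 1.35 FPKM in Sh-YAP1 replicates 2 and 3, and listed at 0 in Sh-YAP1 replicate 1, where the second row was at 1.50 FPKM. In Sh-YAP1 replicate 2 the leading row was the whole of TNFAIP3. Of the 37 rows, 12 were listed at 0 in at least 1 library, 6 of them in TNFAIP3 and 4 in RELB, and no difference between the groups is drawn from such rows.

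**Figure D3:**
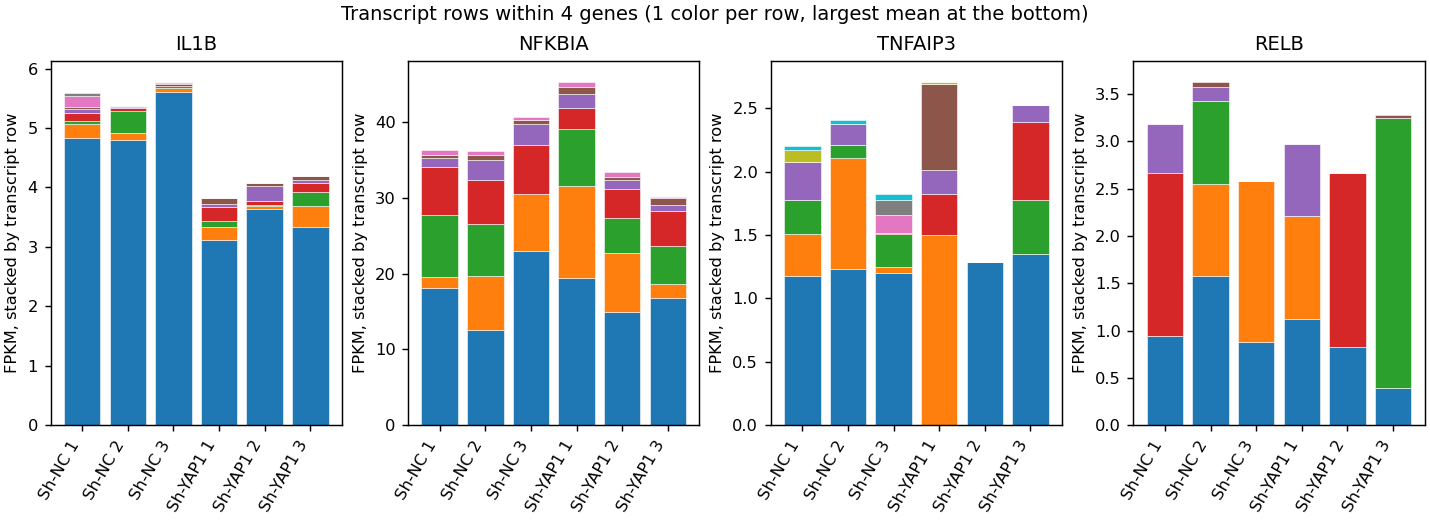
FPKM (vertical axis, stacked by transcript row) of IL1B, NFKBIA, TNFAIP3 and RELB in each of the 6 libraries, with 1 color per row and the row of the highest mean at the bottom. The bottom row of IL1B is shorter in all 3 Sh-YAP1 libraries, and rows of NFKBIA, RELB and TNFAIP3 change from library to library within a group.

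Around these 10 genes, 8 lists of chemokine, receptor, IL1, TNF and NF-kB pathway genes were read from the same fit, 119 genes of which 78 could be tested. Of the 78, IRAK2 and TAX1BP1 rose and CSF2 and CD83 fell (adjusted p under 0.05, limma and Benjamini-Hochberg), and none of the others passed. That is 5.13% of the 78, beside 3.38% of all genes tested. The lists were chosen with earlier results of these data known, so these shares are a description and test nothing. Each of the 4 calls was lost when any of the 6 libraries was left out, except that TAX1BP1 passed without Sh-YAP1 replicate 3. Their log2 fold changes then ran from 0.55 to 0.67 for IRAK2, from 0.64 to 0.74 for TAX1BP1, from -0.71 to -0.56 for CSF2 and from -0.55 to -0.45 for CD83. With no filter on low levels, IRAK2, CSF2 and CD83 did not pass, and without transcript rows that exceeded 1 FPKM in a single library, TAX1BP1 and CD83 did not. The median log2 fold change of the 78 was -0.07, with 30 above and 48 below 0.

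The receptors CXCR1, CXCR2 and CCR2, which bind the chemokines described above, were at or near 0. Of 11 chemokine receptors, CXCR1, CXCR2, CXCR3, CCR6 and ACKR3 were listed at 0 in all 6 libraries, CCR2 did not exceed 0.01 FPKM, and none of the 3 tested (CCRL2, CXCR4 and CCR1) passed, where 3.38% of all genes tested did. CCR1, named here to complete that count, was at 0.63 to 1.01 FPKM over the 6 libraries, with overlapping groups. CCRL2, a receptor that binds without signalling, was the highest, at 21.9 to 24.4 FPKM in Sh-NC and at 20.3 to 20.9 FPKM in Sh-YAP1. CXCR4, the receptor of CXCL12, was at 1.11, 1.02 and 1.62 FPKM in Sh-NC and at 0.61, 0.68 and 0.56 FPKM in Sh-YAP1 (log2 fold change -0.47, adjusted p = 0.108, limma and Benjamini-Hochberg). The groups did not overlap for CXCR4 and CCRL2, 2 of the 3 receptors tested, where 29.4% of all genes tested did not overlap. Of 18 further chemokines, 5 were listed at 0 throughout and 4 were tested, with none called, beside the same 3.38%. CCL28, a mucosal chemokine, was at 0.59 to 0.98 FPKM in Sh-NC against 1.33 to 1.54 FPKM in Sh-YAP1 (log2 fold change 0.46, adjusted p = 0.0932, limma and Benjamini-Hochberg), and CCL26 was at 1.50 to 2.00 and 0.78 to 1.51 FPKM.

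In the IL1 list, 1 of 10 genes tested rose and none fell, where 1.75% of all genes tested rose and 1.62% fell. IRAK2 (ENSG00000134070), a kinase-like adaptor that relays IL1 receptor signals, was at 6.70, 5.58 and 6.68 FPKM in the Sh-NC libraries and at 11.3, 9.99 and 9.55 FPKM in the Sh-YAP1 libraries. Every Sh-YAP1 library was above every Sh-NC library, and the log2 fold change was 0.62 (SE 0.10, adjusted p = 0.0331, limma and Benjamini-Hochberg). IL18, a cytokine processed like IL1B, was at 14.7, 17.4 and 22.0 FPKM in Sh-NC and at 11.3, 12.4 and 11.3 FPKM in Sh-YAP1 (log2 fold change -0.57, adjusted p = 0.0885, limma and Benjamini-Hochberg). IL1R1, the IL1 receptor, named here after its values were seen, was at 0.57 to 0.75 FPKM in Sh-NC against 1.17 to 1.44 FPKM in Sh-YAP1 (log2 fold change 0.46, adjusted p = 0.0703, limma and Benjamini-Hochberg). Its log2 fold change was 0.745 when only transcript rows averaging 0.1 FPKM or more were summed, and 0.96 when 0.01 was added before the logarithm. The groups did not overlap for IRAK2, IL18 and IL1R1, 3 of the 10 genes tested, where 29.4% of all genes tested did not overlap, and of the 3 IRAK2 alone passed. IRAK1, the most abundant gene of the list, was at 46.6 to 49.5 FPKM and 41.9 to 58.2 FPKM. IL1RN, the natural antagonist of the receptor, was listed at 0 in all 6 libraries.

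None of the 11 TNF pathway genes tested, none of the 11 kinases and none of the 10 other NF-kB and IkB genes passed, where 3.38% of all genes tested did. TNFRSF1A, the main TNF receptor, was at 44.8 to 67.1 FPKM in Sh-NC against 49.2 to 65.5 FPKM in Sh-YAP1, while TNF itself did not exceed 0.03 FPKM. The largest log2 fold changes among the TNF genes were those of BIRC3 (-0.43) and TNFRSF1B (-0.33), both with overlapping groups. Without Sh-NC replicate 3 they were -0.21 and -0.47, and without transcript rows that exceeded 1 FPKM in a single library they were -0.25 and -0.33, so their order turned in both settings. MAP3K14, the kinase that starts the alternative pathway, was at 9.17 to 14.1 FPKM in Sh-NC against 6.73 to 8.64 FPKM in Sh-YAP1 (log2 fold change -0.48, adjusted p = 0.182, limma and Benjamini-Hochberg). Without Sh-NC replicate 1 it was -0.29. IKBKG had a log2 fold change of 0.27 with overlapping groups, which ran from 0.13 to 0.42 with a library left out and was 0.62 without transcript rows that exceeded 1 FPKM in a single library. TAB2, the most abundant of the kinase list, had a log2 fold change of -0.17, which ran from -0.29 to -0.0656 with a library left out. The groups did not overlap for 1 of the 11 kinases, MAP3K14, and for 1 of the 11 TNF genes, TRAF1, named to complete that count. TRAF1 was at 0.65 to 0.78 FPKM in Sh-NC and at 0.52 to 0.59 FPKM in Sh-YAP1. Of all genes tested, 29.4% did not overlap.

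NFKB2, the partner of RELB, was at 19.1, 20.8 and 18.6 FPKM in Sh-NC and at 13.4, 14.2 and 16.5 FPKM in Sh-YAP1. NFKBIE, which encodes IkB epsilon, was at 5.41, 5.48 and 4.99 FPKM in Sh-NC and at 2.59, 3.40 and 3.93 FPKM in Sh-YAP1. Both were lower in all 3 Sh-YAP1 libraries, with log2 fold changes of -0.39 and -0.56 and adjusted p of 0.0874 and 0.0755 (limma, Benjamini-Hochberg). Without transcript rows that exceeded 1 FPKM in a single library, the log2 fold change of NFKBIE was 0.18. REL and NFKBIB, named to complete the 4 of 10 genes whose groups did not overlap, were higher in all 3 Sh-YAP1 libraries, REL at 0.87 to 0.89 FPKM and at 1.03 to 1.23 FPKM, NFKBIB at 10.4 to 11.7 FPKM and at 11.9 to 14.6 FPKM. Of all genes tested, 29.4% did not overlap. RELA, the most abundant subunit, was at 22.7 to 26.0 FPKM in Sh-NC against 21.6 to 37.8 FPKM in Sh-YAP1.

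Of 11 inhibitor and decay genes tested, TAX1BP1 (ENSG00000106052), an adaptor that brings A20 to its substrates and also serves in autophagy, was the only one that passed, where 3.38% of all genes tested did. It was at 29.1, 30.7 and 29.6 FPKM in the Sh-NC libraries and at 50.8, 50.1 and 43.8 FPKM in the Sh-YAP1 libraries. The groups were far apart compared with the spread within them, with a log2 fold change of 0.67 (SE 0.08, adjusted p = 0.0136, limma and Benjamini-Hochberg). JAZF1 and AC005091.1 overlap TAX1BP1 on the opposite strand. OTULIN, which removes linear ubiquitin chains, was at 5.49, 5.67 and 5.46 FPKM in Sh-NC and at 3.99, 3.73 and 4.19 FPKM in Sh-YAP1 (log2 fold change -0.40, adjusted p = 0.0551, limma and Benjamini-Hochberg). TNIP1, a partner of A20 and the most abundant gene of the list, was at 85.3 to 94.7 FPKM in Sh-NC against 75.8 to 90.5 FPKM in Sh-YAP1.

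The list of inflammatory and NF-kB target genes held the most genes with separated groups, 12 of 18 tested, 5 higher and 7 lower in Sh-YAP1. Of all genes tested, 29.4% did not overlap and 14.7% were lower without overlap. This list too was chosen with earlier results of these data known, so its shares are a description and test nothing. The genes that passed were 2, and both fell, where 3.38% of all genes tested passed and 1.62% fell. CSF2 (ENSG00000164400), the growth factor GM-CSF, was at 6.51, 7.19 and 7.12 FPKM in the Sh-NC libraries and at 3.73, 3.98 and 4.84 FPKM in the Sh-YAP1 libraries (log2 fold change -0.62, SE 0.11, adjusted p = 0.0349, limma and Benjamini-Hochberg). CD83 (ENSG00000112149), a surface protein induced in activated immune cells, was at 5.88, 5.14 and 6.01 FPKM and at 3.50, 3.97 and 3.77 FPKM (log2 fold change -0.49, SE 0.09, adjusted p = 0.0463, limma and Benjamini-Hochberg). SAA1, an acute phase protein with the near copy SAA2, had the largest log2 fold change of the list, -1.01, but its Sh-NC libraries ranged from 2.44 to 5.66 FPKM and it did not pass (adjusted p = 0.115, limma and Benjamini-Hochberg). The other separated lower genes were IL6, IL32, TNFAIP2 and SAA2. The 5 separated higher genes, named to complete the 12, did not pass. Their log2 fold changes were 0.52 for CSF3, 0.42 for PTGS2, 0.41 for SOD2, 0.24 for C3 and 0.15 for CSF1. IER3, an immediate early NF-kB target and the most abundant gene of the list, was at 129 to 136 FPKM in Sh-NC against 120 to 151 FPKM in Sh-YAP1, with overlapping groups.

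**Figure D4:**
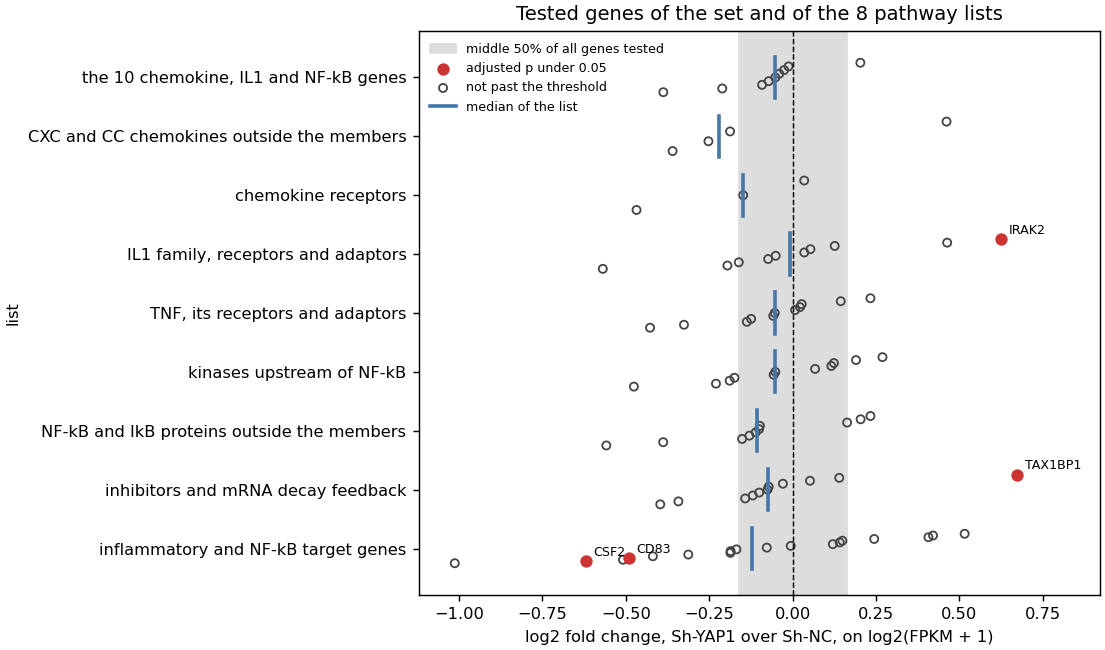
Log2 fold change of Sh-YAP1 over Sh-NC (horizontal axis) for every tested gene of the 10-gene set and of the 8 pathway lists (rows), with the list median as a line and the middle 50% of all genes tested, -0.16 to 0.16, shaded. Filled points passed an adjusted p of 0.05 (IRAK2, TAX1BP1, CSF2 and CD83) and open points did not. In the 10-gene set, IL1B, CCL2 and CXCL1 lie outside the shaded band.

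The profile over the 6 libraries of IL1B, the member with the log2 fold change of largest size, was closest to those of RRP9, MYEOV and CENPV. The search covered 13098 genes that averaged 1 FPKM or more. Closeness was the root mean square distance between log2(FPKM + 1) values centred on each gene's mean, and it was 0.023, 0.026 and 0.035, beside 0.198 for the spread of IL1B around its own mean. RRP9, for example, was at 29.5, 27.8 and 28.8 FPKM in Sh-NC and at 20.4, 21.8 and 22.3 FPKM in Sh-YAP1. Because the mean was taken over both groups, this distance mostly picks genes with a like difference between the groups. The log2 fold changes were -0.40, -0.43 and -0.36 for the 3 genes, beside -0.39 for IL1B. Likeness beyond that difference was not tested.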

How the data were processed

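The authors deposited expression as FPKM with 2 decimals, 1 value per transcript row and library, for 229420 rows of 60612 genes. Per the labels, the submitters' processing notes name Bowtie 0.12.2, HISAT2 2.0 and the build hg19, with no role or order. The quantification tool, annotation and filters are not given in the sources used here. The values carry no counts, so the depth is unknown and no interval for counting error is given.

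Rows were summed per gene. Symbols came from a table of gene identifiers, with SOD2 matched through GENCODE 29. Gene positions are from GENCODE 29 (GRCh38), used for annotation and not converted from the build of the files. The 14770 genes that averaged 0.5 FPKM or more were tested on log2(FPKM + 1) in R 4.3.3 with limma 3.58.1 (lmFit, eBayes, trend on). The only term was condition, and p-values were adjusted by Benjamini-Hochberg. Fold changes on this scale understate those of weakly expressed genes. The 6 values of a single gene were also set against all regroupings (two-sided exact permutation test). Other steps used Python 3.11.15, pandas 2.3.3, numpy 2.4.6, scipy 1.17.1, matplotlib 3.10.9 and Biopython 1.88, and the code was tested on simulated data.

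The 10 genes and the 8 lists were chosen with earlier results of these data known. Named genes were the 10 genes, YAP1 and, of each list, genes with an adjusted p under 0.05, up to 2 tested genes with the largest log2 fold change and the one with the highest mean, and, for the likeness to IL1B, the 3 nearest genes. Alternatives covered the pseudocount, filter, scaling, trend, replicate block, each library left out, and the rows summed. Across genes, libraries that share a replicate number deviated from their groups with correlations of -0.028 to 0.062, so the numbers were not used as pairs.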

Additional observations from a re-analysis of the deposited data

How the results depend on the processing

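None of the 9 genes tested reached an adjusted p of 0.05 (limma, Benjamini-Hochberg) under any of the 16 alternatives, in 143 values. With a filter of 1 FPKM, CXCL3, CXCR4 and IL1R1 were not tested. Pathway list genes called, 4 as reported, were 1 without the filter, 5 with a filter of 1 FPKM, 5 with median centring, 6 without the mean-variance trend, 0 with the replicate block and 2 without rows above 1 FPKM in a single library, and 0 to 1 with each library left out. Genes called in all, 499 as reported, were 232 without the filter (more genes tested), 1 with the replicate block (2779 at an unadjusted p under 0.05) and 78 to 171 with a library left out (fewer samples). Of the genes named, the replicate block kept only the call of YAP1 (adjusted p = 0.0234, limma and Benjamini-Hochberg). It ended those of IRAK2, TAX1BP1, CSF2 and CD83 (adjusted p of 0.113 to 0.165, limma and Benjamini-Hochberg). It also ended those of RRP9 and MYEOV, whose adjusted p as reported were 0.0352 and 0.0253 (limma, Benjamini-Hochberg). OTULIN passed with a filter of 1 FPKM and with median centring (adjusted p of 0.0482 and 0.0481, limma), and IL1R1 without the mean-variance trend (adjusted p = 0.0492, limma). A pseudocount of 0.01 in place of 1 raised the size of weakly expressed genes' log2 fold changes, to -0.98 for CXCR4, 0.90 for CCL28, 0.96 for IL1R1, -0.63 for CCL26, -0.61 for TNFRSF1B and -0.65 for BIRC3, and moved none of these past the threshold. The median log2 fold change of the 9 genes ran from -0.13 to 0.01 (0.0052) with a library left out. The sign turned in 23 values, none of them called. The log2 fold change became 0.0468 for IER3 with quantile normalization, 0.0618 for TNFAIP3 with rows of a mean of at least 0.1 FPKM, and, without rows above 1 FPKM in a single library, 0.00 (0.0043) for CXCL8 and 0.18 for NFKBIE. That last setting also gave -0.48 for RELB (-0.05 as reported), -0.43 for TNIP1 (-0.10) and -0.25 for BIRC3 (-0.43). With a library left out the log2 fold change ran from -0.14 to 0.21 for TNFAIP3, -0.10 to 0.0586 for IER3, -0.13 to 0.0656 for CXCL2, -0.15 to 0.0345 for RELB, -0.30 to 0.0356 for CXCL3, -0.0892 to 0.0467 for CXCL8, -0.24 to 0.0483 for NFKBIA, -0.14 to 0.15 for TNFRSF1A, -0.0837 to 0.15 for IRAK1 and -0.0175 to 0.37 for RELA. The cause was not tested. With 3 libraries per group and unknown depth, differences of the sizes seen here for most of the 10 genes lie within the spread between replicates.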

Other observations

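The extreme values of the 10 genes were spread unevenly over the Sh-YAP1 libraries. Sh-YAP1 replicate 2 was the lowest of the 6 libraries for 4 of the 10 genes (CXCL2, CXCL8, IL1A and TNFAIP3) and the highest for 0, and Sh-YAP1 replicate 1 was the highest for 4 (CXCL1, CXCL2, NFKBIA and TNFAIP3) and the lowest for 1, IL1B. Sh-YAP1 replicate 3 was the lowest for CCL2 and NFKBIA. In the Sh-NC group, replicate 3 was the highest for CXCL3, CXCL8 and IL1B. The labels give no batch or date for the libraries, and this pattern was noticed in the data and not tested. How often each library was the lowest or highest over all genes tested was not worked out. The pattern is therefore given for these 10 genes only.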
